A study of Mus musculus with 6 samples.

Results

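The replication-dependent histone genes encode the linker histone H1 and the core histones H2A, H2B, H3 and H4 that are made while a cell copies its DNA. They were taken by gene symbol from a table of mouse gene counts: every protein-coding gene named H1f1 to H1f5, or H2ac, H2bc, H3c or H4c with a number, which in this set are the current names of genes once called Hist1h or Hist2h. Of 40808 gene IDs in the table, 62 met this rule: 5 H1, 17 H2A, 16 H2B, 12 H3 and 12 H4 genes. A further 2 symbols that fit the pattern, H2ac14 and H2ac5-ps, were pseudogenes and were left out. In the mouse genome (RefSeq annotation of GRCm38.p6), 52 of the 62 genes lay on chromosome 13, within 2219.2 kb from 21715711 to 23934913, and 10 lay on chromosome 3, within 50.3 kb from 96219885 to 96270192. The rule used symbols and gene type and no measured value, but this set of genes was picked with earlier results of these data known.

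The labels describe the RNA as from leukaemia cells of the spleen of mice that had received a bone marrow transplant. The T cell, B cell and neutrophil markers given below differed widely between the groups, and the share of leukaemia cells in each library was not measured. There were 6 libraries in 2 groups: replicates 4, 5 and 6, labelled NO_DOX with the treatment given as "no", and replicates 10, 11 and 12, labelled ON_DOX with the treatment given as "Dox". The labels do not spell Dox out, and they give no dose, no duration, no gene on which it was meant to act, and neither sex, strain nor genotype of donors or hosts, so no targeted gene could be checked against the labels. The study's title concerns the control of NOTCH, a receptor that drives T cell leukaemia, by a pathway of UVRAG, ITCH and ESCRT. Nothing in the labels says whether the 3 libraries of a group came from separate animals, so the p-values below measure the spread between these libraries only.

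A replicating cell must pack newly copied DNA into nucleosomes, and it makes most of the histones for this from the clustered genes, whose mRNAs build up as S phase begins and are destroyed as it ends. Their main transcripts have no introns and, unlike other mRNAs of animal cells, normally end without a poly(A) tail, although longer and spliced forms are annotated for some of them. A short stem-loop, bound by the protein SLBP, takes the tail's place. A complex that contains the U7 small nuclear RNA cuts the precursor downstream of the stem-loop, which stays at the end of the message and governs its export, translation and decay. Histone variants encoded outside the clusters, such as H2A.Z and H3.3, have ordinary polyadenylated mRNAs and are made throughout the cell cycle.

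The libraries were made with a kit (QuantSeq, forward) that starts from an oligo(dT) primer, so an mRNA that ends in the stem-loop is outside what the kit is built to catch. A count here comes from the part of a gene's RNA that had a poly(A) tail or an A-rich stretch at which the primer could start. Levels below are therefore levels of captured RNA and not of total histone mRNA, and whether the captured part was the same in both groups was not tested.

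The stem-loop was searched for in the GENCODE transcript models of the 62 genes. A match of 16 bases stood 21 to 58 bases (median 31) after the stop codon in 42 of them, 15 models ended fewer than 20 bases after the stop codon, and 5 longer models held no match. The element is shown here for members whose values are described below, with the 16 matched bases in capitals and 6 bases on either side, to show the letters that occur in these genes. Some are shared between classes, as by H2bc12 and H3c3, and some differ within a class.

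H1f4: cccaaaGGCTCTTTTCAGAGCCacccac
H2ac20: caaaaaGGCTCTTTTTAGAGCCaccaaa
H2bc12: accaaaGGCTCTTTTAAGAGCCactaaa
H3c3: aaaaaaGGCTCTTTTAAGAGCCacctaa
H3c8: tttaaaGGCTCTTCTTAGAGCCacccat
H4c4: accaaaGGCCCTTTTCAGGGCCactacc
H4c9: cttaaaGGCCCTTTTTAGGGCCaccaca
H4c1: accaaaGGCCCTTCTCAGGGCCgcccac
H4c11: cctaaaGGTCCTTTTCAGGACCaccaca

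The H1, H2A, H2B and H3 elements shared the outer stem bases GGCTC and GAGCC, and the H4 elements had GGCCC with GGGCC or, in H4c2 and H4c11, GGTCC with GGACC. In 19 models the annotated transcript ran more than 100 bases past the element, as a transcript does when it is polyadenylated downstream. The models of H2ac23 and H2ac24, the members with the most counts, held a run of 12 A, in capitals below, directly before the stem-loop, whose first 9 bases close the line.

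H2ac23: cccgaaaagAAAAAAAAAAAAggctctttt
H2ac24: cccgaaaagAAAAAAAAAAAAggctctttt

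The printed stretches of H2ac23 and H2ac24 were the same. The longest run in any member's model, 15 A, lay past the stem-loop of H2ac6, 856 bases after its stop codon. H2ac23 and H2ac24 held 174312 of the 353858 counts of all members (49.3%), and results on H2A are given with and without them. Their counts were nearly equal and their coding sequences identical, so the same reads may be counted in both genes. This share, and the shares and sums below that hold both genes, may then count those reads 2 times.

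Total counts were 5541486 to 7729988 without Dox and 6498193 to 8725767 with Dox, and the members took 0.911%, 1.294% and 1.247% of the counts without Dox and 0.472%, 0.543% and 0.767% with Dox. The groups also differed in ways that may bear on every comparison below. The 10 T cell markers on the list summed to 1790 to 1932 normalized CPM (counts divided by library size after TMM scaling of composition) without Dox and to 116.5 to 126.5 CPM with Dox. The 8 B cell markers summed to 33.87 to 42.04 CPM without Dox and 1658 to 1810 CPM with Dox, the 8 neutrophil markers to 49.33 to 62.82 and 2201 to 2371 CPM, with Ly6g at 0 counts in all libraries without Dox, and the 4 megakaryocyte markers to 58.77 to 69.84 and 205.8 to 262.7 CPM. The 8 erythroblast markers summed to 1563 to 1895 CPM without Dox and 2141 to 2206 CPM with Dox, and haemoglobin genes took 8.61% to 9.04% and 14.13% to 15.89% of counts. The 6 macrophage markers overlapped between the groups (521.4 to 643.7 and 545.3 to 834.1 CPM). Y-linked genes had 545 to 801 counts without Dox and 0 in each Dox library, and Xist, which coats the inactive X, had 193 to 324 and 3347 to 5669. Dox, the sex of the cells and the mix of cell types thus cannot be told apart in these libraries, and in bulk RNA a smaller share of cells that make histone mRNA cannot be told from less of it per cell. Replicate 12 of the Dox group stood apart from replicates 10 and 11 in the histone genes, so results that rest on it are also given without it.

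The first question was how the histone genes as a group compared between spleens with and without Dox. They were lower with Dox or did not pass the test, and none was higher. Of the 62 members, 61 had enough counts to be tested. With edgeR's quasi-likelihood test and Benjamini-Hochberg adjustment over all 14110 genes tested, 29 of the 61 (47.5%) were lower with Dox, 0 were higher and 32 did not pass an adjusted p-value of 0.05. Among all tested genes 45.6% were called, 22.1% lower and 23.6% higher. At an unadjusted p-value under 0.05 there were 30 lower and 0 higher members, and DESeq2 and limma-voom each called 30 lower and 0 higher.

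The log2 fold changes (Dox over no Dox) ran from -2.79 for H2ac15 to 0.47 for H4c1, with a median of -0.65 beside 0.07 over all tested genes. They were below 0 in 54 members, and in 33 the 3 Dox libraries all lay below the 3 libraries without Dox. For all genes that last share was 29.6% lower, or 59.6% in either direction, and no member had all 3 Dox libraries above the others. The member that was not tested, H2ac1, a testis H2A gene, had 0 counts in all 6 libraries, which allows up to 0.344 to 0.541 CPM per library.

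Scaling by library size alone moved the median of all genes from 0.07 to 0.38 and the share of calls that were higher from 51.6% to 64.3%. Under it 24 of the 29 calls remained, beside 16.7% of all genes lower. In that fit 44 members stayed below 0, and the members' median was -0.35. The distance from the median of all genes was much the same, -0.737 in place of -0.725. Without replicate 12 of the Dox group, 40 members were lower, among them all 29, and the median was -1.08. Among all genes tested in that fit 24.5% were lower, with a median of 0.045.

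**Figure D1:**
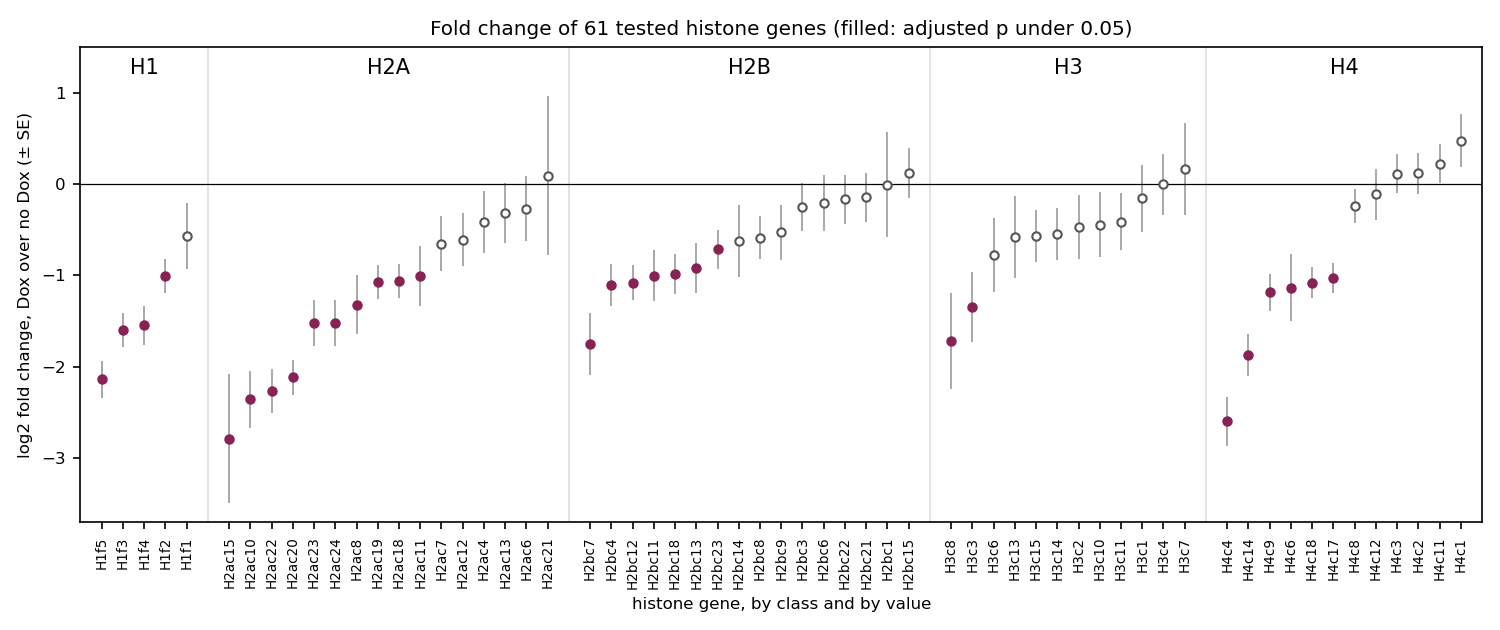
Log2 fold change, Dox over no Dox, of the 61 tested histone genes, grouped by class and ordered by value. Points are edgeR estimates with bars of 1 standard error, and filled points passed an adjusted p-value of 0.05. The 29 filled points all lie below 0, and the fold changes above 0 are all unfilled. Scaling by library size alone puts 10 of the unfilled points that are below 0 here above it.

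The summed level of each class, in CPM, shows how the captured RNA was divided. The H1 genes summed to 1544, 1594 and 1470 CPM without Dox and to 418.1, 482.0 and 599.2 CPM with Dox, a ratio of the means of 3.07. The H2A genes summed to 6633, 10750 and 9951 CPM and to 2679, 3145 and 4933 CPM, a ratio of 2.54. Without H2ac23 and H2ac24 the ratio was 1.90. With H2ac23 and H2ac24 counted as 1 gene, the log2 ratio of the H2A sum (Dox over no Dox) was -1.252 in place of -1.346. The H2B genes summed to 1211, 984.7 and 831.0 CPM and to 499.2, 604.9 and 728.6 CPM, a ratio of 1.65. In H1, H2A and H2B the groups did not overlap, and replicate 12 was the highest of the Dox libraries in each.

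The H4 genes summed to 742.4, 781.0 and 789.0 CPM without Dox and 380.8, 473.2 and 467.6 CPM with Dox, a ratio of 1.75, again with no overlap. The H3 genes summed to 378.0, 421.7 and 411.6 CPM and to 201.0, 171.0 and 424.9 CPM, so that replicate 12 lay above all 3 libraries without Dox while replicates 10 and 11 lay at or below 201.0 CPM. H3 was thus the class whose sums overlapped between the groups. Sums over members were not tested, because the members were chosen with results of these data known. All class sums stayed lower with Dox when libraries were scaled by size alone or when haemoglobin was left out of the total, with smaller differences. The H3 sum moved most for its size, from a log2 ratio of -0.604 to -0.313 and -0.213.

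**Figure D2:**
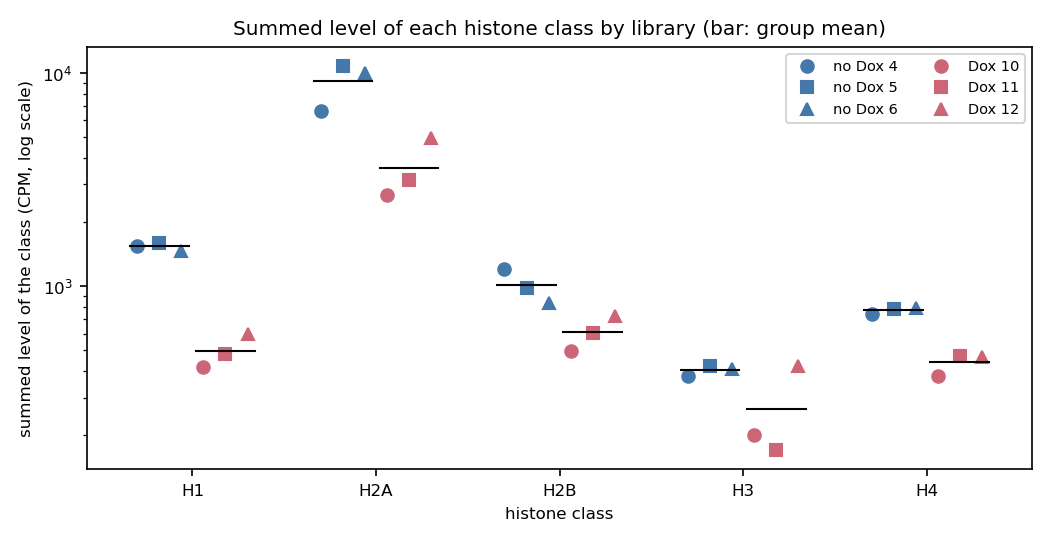
Summed normalized CPM (log scale) of the members of each histone class in the 6 libraries. Blue symbols are the libraries without Dox, red symbols those with Dox, and black bars the group means. The groups are separate in H1, H2A, H2B and H4, and in H3 replicate 12 of the Dox group (424.9 CPM) lies with the libraries without Dox.

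H1 linker histones bind where DNA enters and leaves the nucleosome and help to compact chromatin. Of the 5 genes, 4 (80.0%) were lower with Dox, beside 22.1% of all genes tested. H1f4 (chromosome 13, 23621777 to 23622558), the H1 gene with the highest captured level, was at 873, 891 and 624 CPM without Dox and at 220.5, 251 and 345 CPM with Dox. Every Dox library lay below every library without it, and the log2 fold change was -1.55 ± 0.21 (SE; adjusted p = 0.000263 by edgeR). H1f5 (chromosome 13, 21779832 to 21780625) was at 381, 380.2 and 564 CPM without Dox and at 91.6, 96.3 and 113 CPM with Dox, a log2 fold change of -2.14 ± 0.20 (SE; adjusted p = 2.76e-05 by edgeR).

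H1f2, one of the H1 genes that remains expressed in many resting cells, was at 125, 135 and 118 CPM without Dox and at 50.1, 68.2 and 69.8 CPM with Dox (log2 fold change of -1.0 with an SE of 0.19 and an adjusted p of 0.00175, edgeR). H1f3 was also lower, with a log2 fold change of -1.60 and groups that did not overlap. The exception was H1f1, at 28.5, 23.5 and 11.5 CPM without Dox and 13.9, 16.7 and 12.3 CPM with Dox, where the groups overlapped. The calls on H1f2, H1f4 and H1f5 held in each of the 14 alternatives in which single genes were recomputed.

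H2A forms a dimer with H2B, and the pair of dimers sits on the outside of the H3 and H4 core. Of the 17 H2A genes 16 were tested and 10 (62.5%) were lower with Dox, beside 22.1% of all genes tested. H2ac23 (chromosome 13, 21810367 to 21810918) was at 2274, 4136 and 3809 CPM without Dox and 953, 1039 and 1572 CPM with Dox, a log2 fold change of -1.52 ± 0.25 (SE; adjusted p = 0.0009 by edgeR). The groups did not overlap, replicate 4 was the lowest of the libraries without Dox and replicate 12 the highest of those with it.

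H2ac24 (chromosome 13, 21833024 to 21833475) had counts within 0.28% of those of H2ac23 in every library. The coding sequences of both are identical, so their reads cannot be assigned to either with confidence, and they carry 1 result and not 2 (log2 fold change of H2ac24 -1.52, adjusted p = 0.000904 by edgeR). On chromosome 3 the identical copies H2ac18 and H2ac19 agreed within 1.44% and also amount to 1 result (log2 fold changes of -1.06 and -1.07). Across the class, 9 of the 17 genes had a copy whose coding sequence matched at 99% or more of its bases, and the authors' treatment of reads that fit several genes is not given in the sources used here.

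The largest differences in the class were in 4 genes, of which H2ac22 is among the 9 with a copy. H2ac22 (chromosome 13, 21786774 to 21787248) was at 113, 120 and 87.1 CPM without Dox and 17.6, 28.3 and 20.4 CPM with Dox, a log2 fold change of -2.27 ± 0.24 (SE; adjusted p = 5.38e-05 by edgeR). H2ac20 on chromosome 3 was at 130, 137 and 123 CPM and at 33.2, 24.4 and 32.6 CPM (log2 fold change -2.12). H2ac10 had a log2 fold change of -2.36 and H2ac15 of -2.79, the latter from 174 to 232 counts without Dox and 4 to 63 counts with Dox. In none of these 4 genes did the groups overlap. H2ac11 was also lower (log2 fold change -1.01), but its call was lost with any library left out other than replicate 12 of the Dox group, and with scaling by library size alone.

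The H2A genes that did not pass were mostly those in which replicate 12 was high. H2ac6 (chromosome 13, 23683473 to 23683959), an H2A gene with near copies in the cluster, was at 134, 161 and 193 CPM without Dox and at 71.3, 109 and 223 CPM with Dox. Replicates 10 and 11 lay below all libraries without Dox and replicate 12 above all of them, and the log2 fold change was -0.27 ± 0.35 (SE; adjusted p = 0.562 by edgeR). H2ac4, H2ac7, H2ac12 and H2ac13 had the same order of the Dox libraries. All 5 passed the threshold without replicate 12, which raised the H2A genes called lower from 10 to 15. Counts of H2ac6 and H2ac13 agreed within 5.94% in every library (coding identity 98.2%), and those of H2ac4 and H2ac13 within 8.02% (98.0%). Reads may be shared among these genes, so they may not give 5 separate results. H2ac21, with 4 to 70 counts in the Dox libraries, varied too widely to be read.

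**Figure D3:**
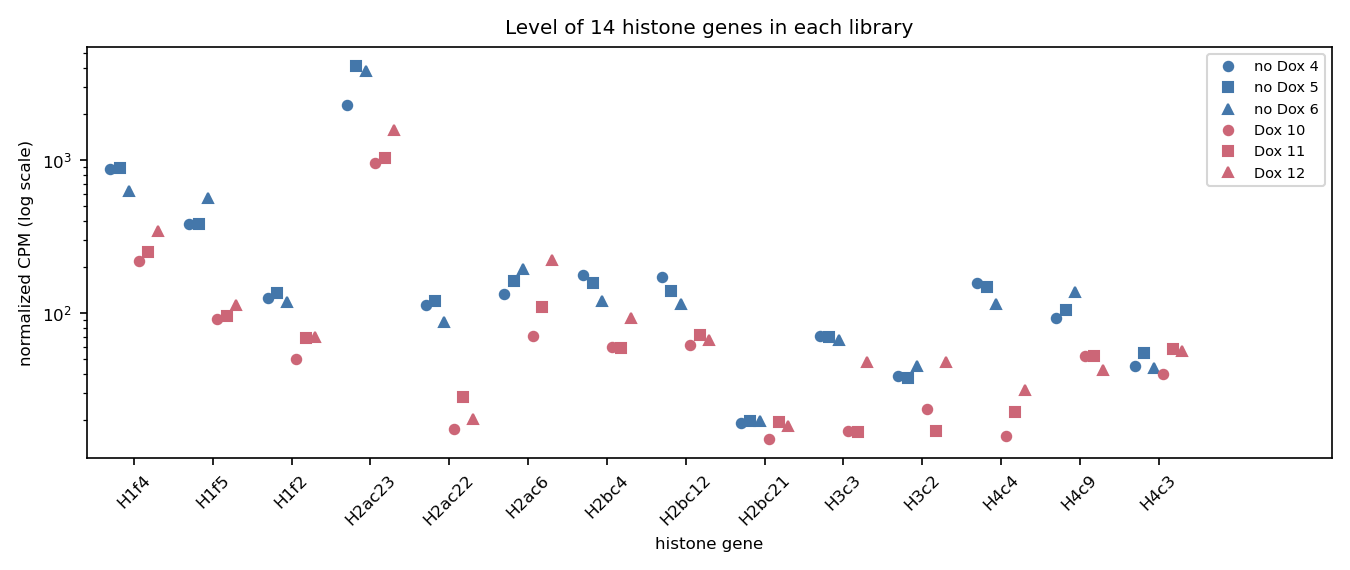
Normalized CPM (log scale) of 14 histone genes in each library; blue symbols are libraries without Dox and red symbols those with Dox. In H1f4, H1f5, H2ac22 and H4c4 the groups are far apart, whereas in H2ac6 and H3c2 replicate 12 of the Dox group (223 and 47.6 CPM) lies above the libraries without Dox.

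H2B is the partner of H2A, and 7 of its 16 genes (43.8%) were lower with Dox, beside 22.1% of all genes tested. H2bc4 (chromosome 13, 23684199 to 23692480) was at 178, 156 and 120.4 CPM without Dox and 60.2, 59.1 and 92.5 CPM with Dox, a log2 fold change of -1.10 ± 0.23 (SE; adjusted p = 0.00344 by edgeR). H2bc12 (chromosome 13, 22035821 to 22036320) was at 171, 139 and 114 CPM and at 61.6, 72.1 and 66.7 CPM, a log2 fold change of -1.08 ± 0.19 (SE; adjusted p = 0.00138 by edgeR). H2bc18 on chromosome 3 was at 117, 115 and 126 CPM and at 48.2, 52.3 and 79.7 CPM (log2 fold change -0.99, adjusted p = 0.00446 by edgeR). In these 3 genes the groups were separate, and the calls held in each alternative.

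H2bc7 had the largest difference of the class, at 48.2, 33.2 and 30.9 CPM without Dox and 8.3, 9.06 and 16.1 CPM with Dox (log2 fold change -1.75). H2bc11 and H2bc23 were also lower, with log2 fold changes of -1.0 (adjusted p = 0.0139 by edgeR) and -0.72 (adjusted p = 0.0219). H2bc21 on chromosome 3, one of the H2B genes known to give polyadenylated mRNA in resting and differentiated cells, was at 19.1, 19.7 and 19.7 CPM without Dox and 14.97, 19.6 and 18.2 CPM with Dox. Its log2 fold change was -0.15 ± 0.27 (SE; adjusted p = 0.682 by edgeR) and turned to 0.16 with scaling by library size alone.

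The place of replicate 4 among the libraries without Dox differed from class to class, and the difference was not tested. Over all 61 members it was the highest of the libraries without Dox in 31.1%, beside 32.8% of all genes tested, and the lowest in 44.3%, beside 31.1%. It was the highest in 13 of 16 H2B genes and the lowest in 10 of 16 H2A genes, 7 of 12 H3 genes and 7 of 12 H4 genes. Of the 5 H1 genes it was the highest in 1 and the lowest in 1. Without replicate 4 of the group without Dox, 4 H2B genes were lower in place of 7. H2bc11, H2bc13 and H2bc23 then missed the threshold, as they did with scaling by library size alone. H2bc23 had counts within 1.89% of those of H4bc24, an H2B gene once called Hist1h2br outside the symbol rule, so these reads may be shared.

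H3 carries many of the lysine residues whose marks regulate chromatin. Of its 12 genes 2 were lower, H3c3 and H3c8, a share of 16.7% beside 22.1% of all genes tested. H3c3 (chromosome 13, 23745042 to 23745521) was at 70.4, 69.5 and 66.6 CPM without Dox and at 17.0, 16.7 and 47.6 CPM with Dox, a log2 fold change of -1.35 ± 0.38 (SE; adjusted p = 0.0156 by edgeR). H3c8 was at 42.2, 44.0 and 44.4 CPM and at 6.67, 5.76 and 27.3 CPM (log2 fold change -1.72, adjusted p = 0.0223 by edgeR). The libraries without Dox agreed closely in both genes, while replicate 12 was well above replicates 10 and 11.

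The same order was found across the class. H3c2 (chromosome 13, 23752345 to 23752840) was at 39.1, 37.9 and 45.1 CPM without Dox and at 23.5, 17.0 and 47.6 CPM with Dox (log2 fold change -0.47, SE 0.35, with an adjusted p of 0.302 in edgeR), so replicate 12 was the highest of all 6 libraries. Replicate 12 was the highest Dox library in 12 of 12 H3 genes. Without it 6 H3 genes were lower (H3c2, H3c6, H3c10 and H3c11 in addition). Without replicate 10 of the Dox group 0 passed, and 1, H3c3, passed without replicate 11 of the Dox group or without replicate 4 or 6 of the group without Dox. The identical copies H3c14 and H3c15, whose counts agreed within 3.65%, had separate groups but did not pass (log2 fold changes of -0.55 and -0.57).

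H4, the most conserved of the histones, pairs with H3, and its 12 genes divided evenly: 6 were lower with Dox and 6 did not pass. H4c4 (chromosome 13, 23581568 to 23581969) was at 157, 149 and 115 CPM without Dox and 15.7, 22.4 and 31.4 CPM with Dox, a log2 fold change of -2.60 ± 0.27 (SE; adjusted p = 4.93e-05 by edgeR). It was the largest of the differences among called members with at least the median expression. H4c9 (chromosome 13, 22040960 to 22041362) was at 93.3, 105 and 137 CPM and at 52.5, 52.3 and 42.6 CPM (log2 fold change -1.19, SE 0.20, with an adjusted p of 0.00107 in edgeR).

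H4c14 on chromosome 3 was lower by a log2 fold change of -1.87, from 58.6, 50.1 and 57.5 CPM to 16.9, 12.9 and 15.7 CPM. The copies H4c17 and H4c18, identical in coding sequence, had log2 fold changes of -1.03 and -1.08, and their counts agreed within 13.05%. H4c6, at a log2 fold change of -1.14, completed the set, but its call was lost without replicate 4 or 5 of the group without Dox, without replicate 11 of the Dox group and with scaling by library size alone.

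Among the 6 H4 genes that did not pass, the groups overlapped in all but H4c8. H4c3 was at 45.1, 54.5 and 43.6 CPM without Dox and 40.3, 57.9 and 56.4 CPM with Dox, and H4c1 at 22.1, 21.1 and 27.3 CPM and at 22.2, 43.3 and 32.2 CPM. H4c1, H4c2, H4c3 and H4c11 had log2 fold changes of 0.11 to 0.47, none of them called. In H4, unlike H3, replicate 12 was the highest Dox library in 5 of 12 genes.

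Of the 6 H4 genes with the stem-loop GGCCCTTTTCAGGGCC, 4 were lower, and H4c4 and H4c3, which share those letters, stood at the ends of their range. The 2 genes with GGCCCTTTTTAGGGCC, H4c9 and H4c14, were both lower. The 2 with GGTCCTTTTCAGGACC, H4c2 and H4c11, and the 1 with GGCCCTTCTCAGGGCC, H4c1, were not called. Over all classes, 14 of 23 tested genes whose model ended at most 100 bases past the element were lower (median log2 fold change -1.03), as were 7 of 19 whose model ran further (median -0.57) and 8 of 19 with no match (median -0.58). Among all genes tested 22.1% were lower. Most models with no match ended fewer than 20 bases after the stop codon, too short to reach the element. These are counts over members that share clusters and sequence, given as a description with no test.

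The promoters were read from RefSeq windows of 250 bases before to 50 bases after each start (GRCm38.p6), which held 58 windows of 57 members. H2bc4, H2bc21, H3c1, H3c7 and H4c14 had no entry. H2bc6 held the additional window. The motifs were searched on both strands, and none contains another. Where an H2A and an H2B gene lie head to head their windows overlap, so the same site can count for both classes. CCAAT, the site of the factor NF-Y, was in 5 of 5 H1, 17 of 17 H2A, 15 of 15 H2B and 10 of 10 H3 windows and in 3 of 11 H4 windows, beside 37.4% of all 32851 windows of this length. TATAAA was in 4 of 5, 11 of 17, 7 of 15, 4 of 10 and 8 of 11 windows of H1, H2A, H2B, H3 and H4, beside 13.6%.

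The octamer ATGCAAAT, read by POU-domain factors such as Oct-1, was in 6 H2A and 7 H2B windows and in 0 windows of the other classes, beside 1.7% of all windows. AAACACA, known from H1 promoters, was in 4 of 5 H1 windows, 2 H2A and 2 H2B windows, beside 7.2%. GGTCCG, the core of a site read by HINFP in H4 promoters, was in 10 of 11 H4 windows, 1 H2B and 1 H3 window, beside 8.3%. The 150 bases before the start are shown for an H1, an H2B and 2 H4 genes, of which 1 passed the test between the groups and 1 did not, with these motifs in capitals on either strand.

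H1f5, chr13:21780626-21780775, minus strand: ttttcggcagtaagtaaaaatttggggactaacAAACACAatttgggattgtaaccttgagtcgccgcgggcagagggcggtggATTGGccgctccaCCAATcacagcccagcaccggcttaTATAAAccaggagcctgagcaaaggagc
H2bc12, chr13:22035671-22035820, plus strand: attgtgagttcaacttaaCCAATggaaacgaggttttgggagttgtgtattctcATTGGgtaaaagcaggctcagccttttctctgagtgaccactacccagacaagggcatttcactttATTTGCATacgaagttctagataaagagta
H4c4, chr13:23581418-23581567, plus strand: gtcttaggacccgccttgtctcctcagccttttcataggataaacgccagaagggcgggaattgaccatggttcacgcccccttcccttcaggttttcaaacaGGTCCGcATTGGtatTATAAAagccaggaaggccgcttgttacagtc
H4c3, chr13:23698459-23698608, minus strand: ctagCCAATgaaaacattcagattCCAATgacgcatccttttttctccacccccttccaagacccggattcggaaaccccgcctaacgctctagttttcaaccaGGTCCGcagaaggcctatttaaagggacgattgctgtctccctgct

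Both H4 windows held GGTCCG close before the start. TATAAA was in the stretch of H4c4, and it was also in the windows of H4c1, H4c11 and H4c12, which were not called. A match is a description of the sequence and says nothing of whether a factor bound there.

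Many H2A and H2B genes lie head to head and share 1 promoter region. Among the members, 11 such pairs had starts within 500 bases of each other, and both genes were tested in 10. In 2 pairs both genes were lower (H2ac11 with H2bc11, and H2ac23 with H2bc23). In 4 pairs the H2A gene passed and the H2B gene did not, and in the other 4 the H2B gene passed and the H2A gene did not, which does not show that the genes of a pair differed. Without replicate 12 of the Dox group both genes were lower in 7 pairs, and the other 3 (H2ac15, H2ac20 and H2ac22 with their partners) had the H2A gene lower. Without replicate 4 of the group without Dox, without replicate 10 of the Dox group or with scaling by library size alone, both were lower in 0 pairs. Both were lower in 1 pair without replicate 5 or 6 of the group without Dox or without replicate 11 of the Dox group, in 3 pairs by DESeq2 or limma-voom, and in 5 with no low-count filter. The sequence between the starts is shown for 3 pairs whose H2A to H2B ratios separated the groups, in different directions, with CCAAT and TATAAA on either strand in capitals.

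H2ac22 and H2bc22, chr13:21787249-21787482, plus strand: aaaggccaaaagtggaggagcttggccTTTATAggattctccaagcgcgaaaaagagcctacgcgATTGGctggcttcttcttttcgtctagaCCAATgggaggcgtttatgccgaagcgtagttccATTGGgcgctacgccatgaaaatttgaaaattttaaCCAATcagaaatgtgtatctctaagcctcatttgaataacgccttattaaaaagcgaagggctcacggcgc
H2ac15 and H2bc15, chr13:21753913-21754075, plus strand: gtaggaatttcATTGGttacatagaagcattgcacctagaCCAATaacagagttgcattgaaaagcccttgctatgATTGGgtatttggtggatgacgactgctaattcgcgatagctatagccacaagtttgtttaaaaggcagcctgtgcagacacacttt
H2ac7 and H2bc7, chr13:23574208-23574380, plus strand: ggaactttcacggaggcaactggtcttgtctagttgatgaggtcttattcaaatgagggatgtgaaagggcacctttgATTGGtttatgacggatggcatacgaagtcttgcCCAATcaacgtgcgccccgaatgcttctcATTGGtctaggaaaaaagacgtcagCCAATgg

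For H2ac22 and H2bc22 the log2 ratio of H2A to H2B stood at 0.88, 1.22 and 1.22 without Dox and -0.82, -0.94 and -1.24 with Dox. H2ac22 was lower (log2 fold change -2.27), while H2bc22, 234 bases away, was at 61.03, 51.7 and 37.3 CPM without Dox and 30.9, 54.3 and 48.2 CPM with Dox and did not pass. For H2ac20 and H2bc21 on chromosome 3, with starts 191 bases apart, the log2 ratio stood at 2.77, 2.80 and 2.64 without Dox and 1.15, 0.32 and 0.84 with Dox. The ratio was thus lower in every Dox library in both pairs.

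In H2ac15 and H2bc15 the log2 ratio stood at -0.93, -0.22 and -0.07 without Dox and -2.65, -7.17 and -2.79 with Dox, the lowest from 4 counts of H2ac15. The opposite direction was found in H2ac7 and H2bc7, with log2 ratios of 2.13, 2.79 and 2.90 without Dox and 3.33, 3.76 and 3.77 with Dox. In these 4 of the 10 pairs the groups did not overlap. The exact two-sided permutation test gave p = 0.1 for each, the smallest that 3 against 3 libraries allow, and 0.25 after Benjamini-Hochberg adjustment over the 10 pairs, so none passed.

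**Figure D4:**
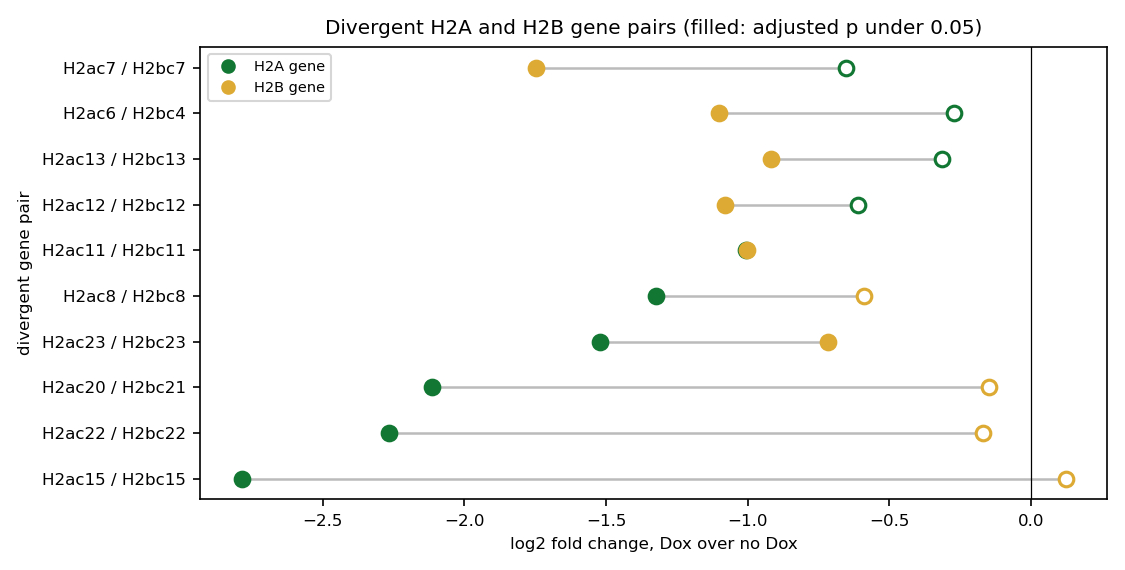
Log2 fold change, Dox over no Dox, of the H2A gene (green) and the H2B gene (yellow) of each of 10 divergent pairs, joined by a line and ordered by the difference. Filled points passed an adjusted p-value of 0.05. The pairs at the bottom (H2ac15, H2ac22 and H2ac20) have a filled H2A point far below an open H2B point, and H2ac7 with H2bc7 at the top has the reverse order.

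By position, the members lie in 3 stretches of chromosome 13 and 1 of chromosome 3. Among all genes tested 22.1% were lower, with a median log2 fold change of 0.07. From 21715711 to 21833475 on chromosome 13, 9 of 17 tested genes were lower (median log2 fold change -0.72). From 22035122 to 22043658 it was 4 of 5 (median -1.01), and from 23531044 to 23934156 it was 11 of 29 (median -0.57). On chromosome 3 it was 5 of 10 (median -0.78). Called and uncalled genes thus lay side by side in every stretch.

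Replicate 12 of the Dox group was the highest Dox library in 41 of the 61 members (67.2%), beside 38.1% of all genes tested. The ratio of its level to the mean of replicates 10 and 11 had a median of 1.46 over the members and 1.01 over all genes. By class this median was 2.26 in H3, 1.89 in H2A, 1.37 in H2B, 1.21 in H1 and 1.09 in H4. The spread within the Dox group was also wider over all genes, with a common biological coefficient of variation of 0.515 beside 0.190 without Dox, and medians of 0.314 and 0.136 over the members.

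Of the 5 lists of histone-related and S phase genes, 4 had their highest sum of the Dox libraries in replicate 12. The summed S phase and proliferation genes were at 3732, 3783 and 4461 CPM in replicates 10, 11 and 12, the chaperone and supply genes at 3934, 4037 and 5165 CPM, the histone mRNA processing genes at 1356, 1317 and 1790 CPM and the histone transcription genes at 842.9, 798.7 and 864.8 CPM. The replication-independent variants, at 1309, 1373 and 999.7 CPM, were lowest in it. Such sums are weighted to the most abundant genes of a list. Single genes of these lists, chosen after their values were seen, showed both directions. Top2a, of the S phase genes, was at 1167, 1248 and 1482 CPM in replicates 10, 11 and 12. It was highest in replicate 12, as was Mki67. Pcna, at 95.8, 69.8 and 61.4 CPM, and Mcm2, at 150.1, 130.5 and 75.9 CPM, were lowest in replicate 12. Npat, which activates histone transcription under cyclin E and CDK2, was at 53.2, 45.5 and 107 CPM in replicates 10, 11 and 12. Casp8ap2 (FLASH), a part of the histone pre-mRNA cleavage machinery, was at 103, 109 and 234 CPM, and Chaf1a, the large subunit of the chaperone CAF-1, at 49.5, 59.1 and 144 CPM. H2az1 was at 158, 152 and 83.4 CPM and Slbp at 35.1, 36.0 and 25.7 CPM, both lowest in replicate 12. The summed macrophage markers were at 834.1, 828.3 and 545.3 CPM in replicates 10, 11 and 12, the megakaryocyte markers at 262.7, 262.2 and 205.8 CPM and the B cell markers at 1775, 1810 and 1658 CPM, each lowest in replicate 12. The erythroblast markers, at 2204, 2206 and 2141 CPM, were lowest in it too. The T cell markers were at 116.5, 119.4 and 126.5 CPM and the neutrophil markers at 2259, 2201 and 2371 CPM, each highest in replicate 12. The part of any of these in the histone levels of replicate 12 was not tested.

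**Figure D5:**
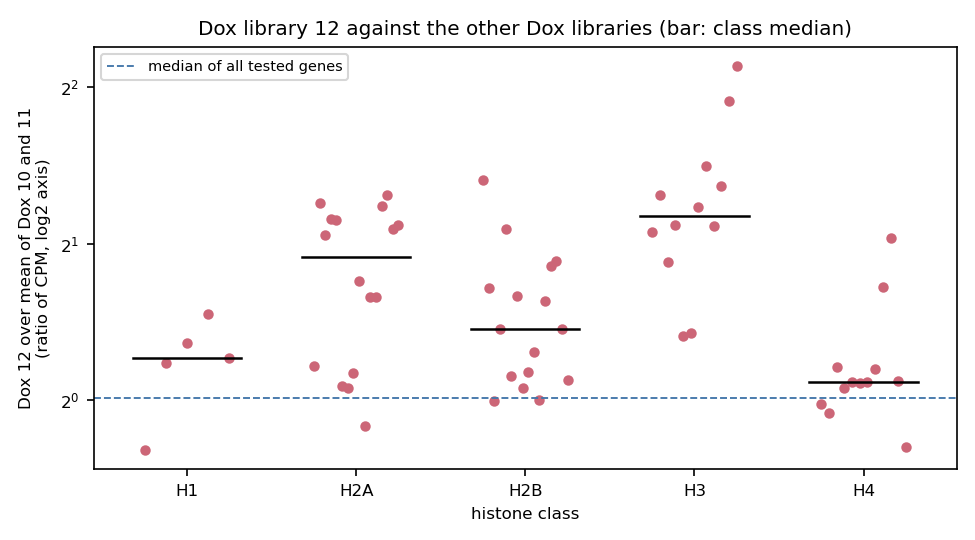
Ratio of the normalized CPM of Dox replicate 12 to the mean of Dox replicates 10 and 11 (log2 axis) for each tested histone gene, by class. Black bars are class medians and the dashed line is the median over all tested genes (1.01). All H3 genes lie above 1, with a class median of 2.26, and the H4 median is 1.09.

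The replication-independent histone variants, whose mRNAs carry poly(A) tails, were measured in the same fit. Of 11 genes 9 were tested, 8 were lower and 0 higher, beside 22.1% and 23.6% of all genes tested. At an unadjusted p-value under 0.05, and by DESeq2 and limma-voom, 0 were higher. The median log2 fold change was -1.98, also with H1f10, which had 0 counts in all Dox libraries, set at its bound against 3 counts. H1f10 passed the count filter through the libraries without Dox alone. With at least 10 counts required in every library, 7 variants were lower. H2az1, which encodes H2A.Z, was at 1720, 2071 and 2140 CPM without Dox and 158, 152 and 83.4 CPM with Dox (log2 fold change -3.92, SE 0.25, with an adjusted p of 3.39e-06 in edgeR). H1f0, the linker histone of differentiated and resting cells, was at 118, 135 and 149 CPM and at 9.8, 10.3 and 17.4 CPM (log2 fold change -3.42, adjusted p = 8.31e-06 by edgeR). H3f3b, which encodes H3.3, was at 902, 997 and 970 CPM and at 372, 371 and 324 CPM (log2 fold change -1.43, adjusted p = 3.26e-05 by edgeR).

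The groups of these 3 variants were far apart. Cenpa, the centromeric H3, was the tested variant that did not pass. Macroh2a2 had too few counts to be tested, and H2ax was listed at 0 counts in all 6 libraries, which is no measurement if the annotation used for counting did not cover it. The summed level of the list was 4810 to 5548 CPM without Dox and 999.7 to 1373 CPM with Dox.

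Among 20 genes that process or degrade histone mRNA, 19 were tested, 6 were lower and 4 higher with Dox, beside 22.1% lower and 23.6% higher of all genes tested, with a median log2 fold change of -0.60. Slbp, the stem-loop binding protein, was at 118, 117 and 118 CPM without Dox and 35.1, 36.0 and 25.7 CPM with Dox, a log2 fold change of -1.86 ± 0.19 (SE; adjusted p = 5.03e-05 by edgeR). Eri1, the exonuclease that trims the stem-loop end, and Lsm1, part of the ring that starts its decay, were also lower (log2 fold changes of -0.98 and -1.44). The 4 that were higher were Tut7 and Tut4, which add uridines to the stem-loop end (1.24 and 0.83), the helicase Upf1 (0.72) and Cpsf2, a subunit of the cleavage complex (0.85).

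Of 13 genes that activate histone transcription, 3 were lower and 2 higher, shares near the 22.1% and 23.6% of all genes tested. The calls on Pou2f1 and Coil, below, were each lost without some libraries. Yy1 (log2 fold change -0.87), Cdk2 (-1.44) and Coil, which builds Cajal bodies (-1.45), were lower, and the octamer-binding factors Pou2f1 (0.63) and Pou2f2 (3.13) were higher. Pou2f2 encodes Oct-2, a factor of B cells, and it rose beside the B cell markers given above. Npat was at 52.2, 48.4 and 39.8 CPM without Dox and at 53.2, 45.5 and 107 CPM with Dox, which did not pass (log2 fold change 0.55, SE 0.31, with an adjusted p of 0.18 in edgeR). With scaling by library size alone Npat passed as higher.

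Of 25 chaperones and supply factors that carry histones to chromatin, 14 were lower and 4 higher, beside 22.1% and 23.6% of all genes tested (median log2 fold change -0.90). Nasp, which guards the soluble pool of H3 and H4, Hat1, which acetylates new H4, and Rbbp4, a subunit of CAF-1, were lower, with log2 fold changes of -0.90, -1.55 and -1.60. Chaf1a (1.91), Cabin1 (1.38), Daxx (0.92) and Tonsl (1.80) were higher. The subunits of CAF-1 did not move together, since Chaf1b was lower (-1.34).

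Of 22 S phase and proliferation genes, 17 were lower and 0 higher, beside 22.1% and 23.6% of all genes tested, with a median log2 fold change of -1.16. None was higher at an unadjusted p-value under 0.05 or by DESeq2 or limma-voom. Mki67, a marker of cycling cells, was at 939, 934 and 812 CPM without Dox and at 854, 801 and 1207 CPM with Dox and did not pass (log2 fold change 0.09, SE 0.18, with an adjusted p of 0.698 in edgeR). Its groups overlapped, with replicate 12 the highest of all 6 libraries, as in H2ac6 and H3c2. The median log2 fold change of the histone members was -0.65, or -1.08 without replicate 12 of the Dox group. With all 6 libraries the medians of the lists were -1.98 for the variants, -1.16 for the S phase genes, -0.90 for the chaperones, -0.60 for the processing genes and -0.33 for the transcription genes, and no difference between lists was tested.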

How the data were processed

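Poly(A) RNA of 6 spleen samples was sequenced from mRNA 3′ ends (QuantSeq, forward), per the labels' protocols. The authors deposited 1 table of raw counts per Entrez gene ID, without pooling. STAR, featureCounts and GRCm38 are named in the submitters' processing notes, and versions and the setting for reads that fit several genes are not given in the sources used here. Symbols came from RefSeq (GRCm38.p6) for 96.5% of 40808 IDs. Genes passed filterByExpr with a minimum count of 10 and a total of 15. This filter asks for the minimum in as many libraries as a group holds, so a gene can pass through 1 group alone. Counts were scaled by TMM and tested with the quasi-likelihood F-test of edgeR 4.0.16 in R 4.3.3. The test used all 6 libraries with no covariate, adjusted over 14110 genes. The SE of a log2 fold change is its size over the root of F. CPM are not scaled by length, since a 3′ library gives 1 fragment per captured molecule. Reads are not independent molecules, so the floor of 3 counts covers counting error only. Stem-loops were searched in GENCODE transcripts and promoter motifs in RefSeq windows. The alternatives used limma 3.58.1 (voom), DESeq2 1.42.0, and other scalings, filters, thresholds and sets of libraries. On simulated counts of 13429 genes the test called 117 of 182 genes changed by 2 on the log2 scale, all in the true direction. It also called 12 of 13247 that were not changed. Its error with 45.6% of genes called, as in these libraries, or with the wider spread of the Dox group was not tested separately.

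The members and gene lists were chosen with earlier results of these data known. Members given in full are the 2 of each class with the highest mean CPM, the 3 with the largest and the 3 with the smallest log2 fold change among called members of at least median expression, and a set of fixed names (H1f0, H1f2, H2ac6, H2bc4, H2bc21, Slbp, Npat, H2az1, H3f3b and Mki67). The choice of other named members and list genes was made after seeing values.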

Additional observations from a re-analysis of the deposited data

How the results depend on the processing

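No paired analysis was possible because replicates 4 to 6 and 10 to 12 have no number in common. Except where given here or, for the divergent pairs, beside their counts above, counts stayed within 1.5 times, and genes given in full kept their side of the threshold, under the alternatives run, and the cause of each change was not tested. With scaling by library size alone, lower H2B genes were 4 in place of 7, higher chaperones 7 in place of 4, the members' median -0.354, and the log2 ratios of the class sums -1.319 (H1), -0.418 (H2B) and -0.505 (H4). H2ac6 then turned to 0.018 and H2bc21 to 0.161, neither called, H2bc11 and H2bc23 lost their calls and Npat gained one. The log2 ratio of the H3 sum was -0.313, and -0.213 without haemoglobin. With haemoglobin left out of the totals, these log2 ratios were -1.215 (H1), -0.314 (H2B), -0.4 (H4) and -0.851 (all members). At an adjusted p-value under 0.01, lower H2B genes were 4, lower H3 genes 0, higher transcription genes 1 and higher genes overall 2200, since a stricter threshold can only lower a count. Without a low-count filter, higher transcription genes were 1 (Pou2f1 lost its call) and Mki67 turned to -0.054. H2ac4, H2ac7, H2ac12, H2bc8 and H3c6 were then called lower, as was H2ac7 by DESeq2 and limma-voom, and Upf1 lost its call. With the 5 protein-coding genes that carry an older Hist name outside the rule, an alternative chosen after seeing the data, 31 members were lower and the median was -0.707.

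Across the 6 fits that each left out 1 library, lower members ran from 23 to 40, lower H2B genes from 4 to 9, lower H3 genes from 0 to 6, higher transcription genes from 1 to 2, the members' median from -1.084 to -0.581 and the log2 ratio of the H3 sum from -1.118 to -0.368. H2ac6 ran from -0.864 to 0.006, above 0 without Dox replicate 10, and Mki67 from -0.131 to 0.178, below 0 without Dox replicate 12 (-0.131) or replicate 6 of the group without Dox (-0.066). H2ac6 and H3c2 gained a call without Dox replicate 12, H3c3 lost its call without Dox replicate 10, H2bc11 and H2bc23 without replicate 4 of the group without Dox, and H2bc23 also without Dox replicate 10. H2bc13 lost its call without either of those libraries, Pou2f1 without any 1 library of the group without Dox, Upf1 without replicate 5 or 6 and Coil without replicate 4 or 5 of that group. Low counts limit some members, such as H2ac15 and H2ac21 with 4 counts in Dox replicate 11. That library had the most counts in total, and the cause of these low values was not tested.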
